A study of Homo sapiens with 12 samples.

Results

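Ribosomal protein genes and translation factor genes were examined among the genes with an m6A peak in K1 cells, an established papillary thyroid cancer (PTC) line. Members were taken by gene name: ribosomal genes are those named RPL or RPS and a number or RPLP, and factor genes are those named EIF or EEF and a number. RPS6K and EIF2AK kinase genes were left out, as were genes that the lists annotate to the endoplasmic reticulum protein processing pathway, which removed EIF2S1. Of 7623 genes with a peak in any list, 35 were members, comprising 12 ribosomal genes and 23 factor genes.

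K1 cells transfected with siRNA against FTO, an m6A demethylase (si-FTO), were compared with K1 cells given a control siRNA (si-NC), by methylated RNA immunoprecipitation sequencing (MeRIP-seq), in which fragments captured by an m6A antibody (IP) are set against input RNA. The series held 12 libraries, 3 IP and 3 input libraries in each group, and the comparison asks how m6A changes when FTO is reduced. The authors deposited a list of peaks for each of the 6 IP libraries, and a peak marks a part of a transcript that is enriched in IP over input. The sources used here give neither the siRNA of each si-FTO library nor the use of separate cultures, so p-values measure only how far these libraries spread, which may be technical.

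The si-FTO lists held 7921, 8454 and 8240 peaks, and the si-NC lists held 8429, 8458 and 8999. The median false discovery rate of a list was 41.1% to 47.2% in si-FTO, against 50.4%, 99.6% and 47.5% in si-NC libraries 1, 2 and 3. Read depth is unknown, so a peak that is not listed may lie under the calling threshold. A list gives no level of an mRNA, so neither the knockdown of FTO nor a change in mRNA abundance was checked. Of 6 thyroid marker genes, only FOXE1, a thyroid transcription factor, had a listed peak, and it was in all 6 lists.

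Ribosomal proteins build the large and small subunits of the ribosome, and their mRNAs are abundant, short and usually begin with a 5′ terminal oligopyrimidine (TOP) run, a C followed by more C and T letters, through which the mTOR pathway controls their translation. Initiation factors bring the mRNA cap, the small subunit and the initiator tRNA together: eIF4E, eIF4G and eIF4A form the cap-binding complex, eIF3 binds it to the small subunit, and eIF5B joins the large subunit. Elongation factors then deliver tRNAs and move the ribosome along. m6A is a reversible methyl mark on adenosines within mRNA, which FTO can remove.

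The annotated transcription starts of members that the results turn on are shown, of which some have a TOP run from the annotated base on and some do not. Sequences are from the RefSeq promoter table (GRCh38.p14), 10 bases before the start and 20 from it on, in the direction of transcription, and capitals mark the TOP run:
RPL22 (chr1:6199576-6199605, minus strand): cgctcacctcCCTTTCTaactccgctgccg
RPL27 (chr17:42998409-42998438, plus strand, no run at the annotated start): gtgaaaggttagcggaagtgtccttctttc
EEF2 (chr19:3985444-3985473, minus strand): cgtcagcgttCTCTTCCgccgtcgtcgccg
RPL26 (chr17:8383174-8383203, minus strand): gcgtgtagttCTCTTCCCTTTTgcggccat
RPS24 (chr10:78033853-78033882, plus strand): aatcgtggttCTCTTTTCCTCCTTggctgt
RPL38 (chr17:74203668-74203697, plus strand): aagtctcgttCTTTTTCgtccttttccccg
RPL36AL (chr14:49620607-49620636, minus strand, no run): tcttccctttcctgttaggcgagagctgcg
EIF5B (chr2:99337379-99337408, plus strand, no run): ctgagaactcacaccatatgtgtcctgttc
EIF4A3 (chr17:80147109-80147138, minus strand, no run): cggcagcggcacagcgaggtcggcagcggc

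A TOP-type start, a C at the start followed by at least 4 letters that are each C or T, was found for 7 of the 11 ribosomal members in the table (63.6%) and for 3 of the 16 factor members (18.8%), which were EEF2, EIF3D and EIF4B. In all, 27 of the 35 members matched the table. Among core ribosomal genes without a peak it was found for 38 of 53 (71.7%), and among all genes of the table for 1404 of 27305 (5.14%). Among initiation and elongation factor genes that are not members it was found for 9 of 31 (29.0%). The set that these factor genes were drawn from holds EIF2S1, which has a peak, and otherwise genes without a peak. The start was read on the transcribed strand only, and a match describes these letters alone. A run was counted only from the annotated base on, so RPL36AL, whose C and T letters begin before that base, has none by this rule.

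Few ribosomal mRNAs carried a listed m6A peak, whereas the share of initiation factor genes was near that of all coding genes. Of 76 core ribosomal protein genes, 8 had a peak in any list (10.5%), 7 of 46 for the large subunit and 1 of 30 for the small subunit, the last being RPS24. Of 20056 protein-coding RefSeq genes, 7422 had one (37.0%). Ribosomal paralogs, which are alternative or tissue-restricted copies of core proteins, were listed for 4 of 8 genes. None of 5 cytosolic ribosomal protein gene names outside the naming rule was listed. Initiation factor genes were listed for 21 of 49 (42.9%) and elongation factor genes for 1 of 8, EEF2. These shares have no test, and mRNA length and level, which bear on whether a peak can be called, were not tested.

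**Figure D1:**
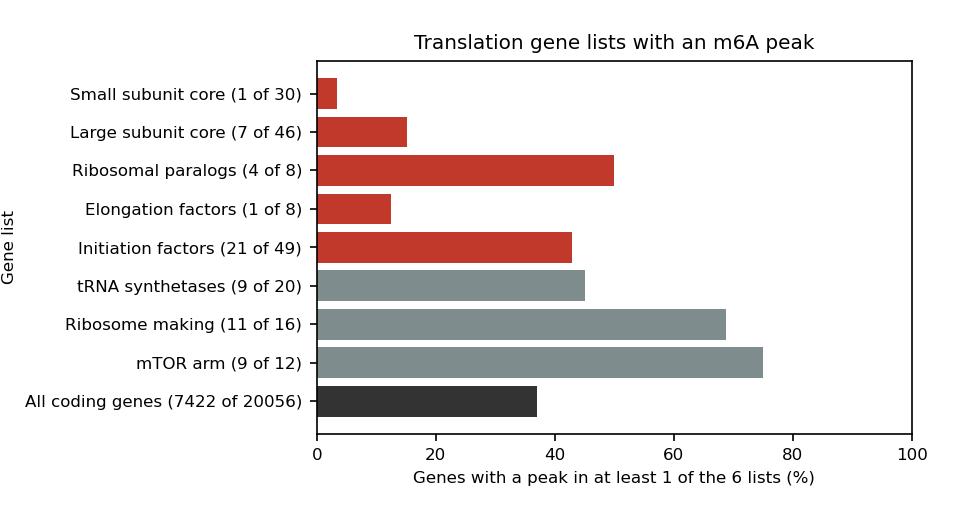
Share of each gene list with a peak in at least 1 of the 6 lists, in percent, with counts beside each name. Red bars are ribosomal and factor lists, grey bars are other translation lists and the dark bar is all protein-coding genes. Core ribosomal genes of the small (1 of 30) and large (7 of 46) subunits lie below the 37.0% of all coding genes, and initiation factors (21 of 49) lie near it.

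Initiation factor genes were grouped by name, so a group can hold genes that are not part of the complex of that name. Peaks were listed for 7 of 14 eIF3 genes, 6 of 11 eIF4 genes, 2 of 4 eIF1 genes, 3 of 6 eIF5 and eIF6 genes and 2 of 4 regulators of eIF4E. None of the 5 eIF2B genes, which recharge eIF2 with GTP, had a peak. The 5 genes grouped under eIF2 were EIF2S1, EIF2S2, EIF2S3, EIF2A and EIF2D. Of these only EIF2S1, the eIF2 subunit that stress kinases phosphorylate, was listed, in 0 of 3 si-FTO lists and 3 of 3 si-NC lists. EIF2S1 falls outside the naming rule through its pathway annotation and is in none of the member counts.

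Member peaks were short, and a few members had very high scores. The median length was 400 bp for the 52 ribosomal peaks and 391 bp for the 147 factor peaks, against 676 bp for all 50501 peaks. The score, 10 times the negative log10 of a peak p-value, was tied at 3100, a value many peaks share near the top of the scale, for 36.5% of ribosomal and 36.7% of factor peaks, against 11.9% of all peaks. RPL36AL, RPL26 and RPL38 held 18 of the 19 such ribosomal peaks, and EIF5B and EIF3A held 40 of the 54 such factor peaks, each region counting once in each list. By fold enrichment, the ratio of IP to input, 22.4% of factor peaks lay above the 95th percentile of their list, against 5.77% of ribosomal peaks and 5.01% of all peaks. All 33 of these factor peaks were of EIF5B (24) and EIF3A (9), and the 3 ribosomal ones were of RPL36AL. The median percentile was 57.7 for factor peaks and 54.7 for ribosomal peaks. The lists placed 29 of 52 ribosomal peaks (55.8%) on transcripts that are not RefSeq entries, against 16 of 147 factor peaks (10.9%) and 17.5% of all peaks.

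Each si-FTO list held more ribosomal genes or as many as any si-NC list, and the groups met at 8 genes. Ribosomal genes numbered 11, 8 and 9 in si-FTO, against 6, 7 and 8 in si-NC. Factor genes numbered 15, 17 and 18 in si-FTO, against 15, 14 and 17 in si-NC, and those groups overlapped. Over all genes the lists held 5263, 5588 and 5459 genes in si-FTO, against 5639, 5628 and 5954 in si-NC, an order that ran the other way. Together, there were 26, 25 and 27 member genes in the si-FTO lists, against 21, 21 and 25 in the si-NC lists.

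**Figure D2:**
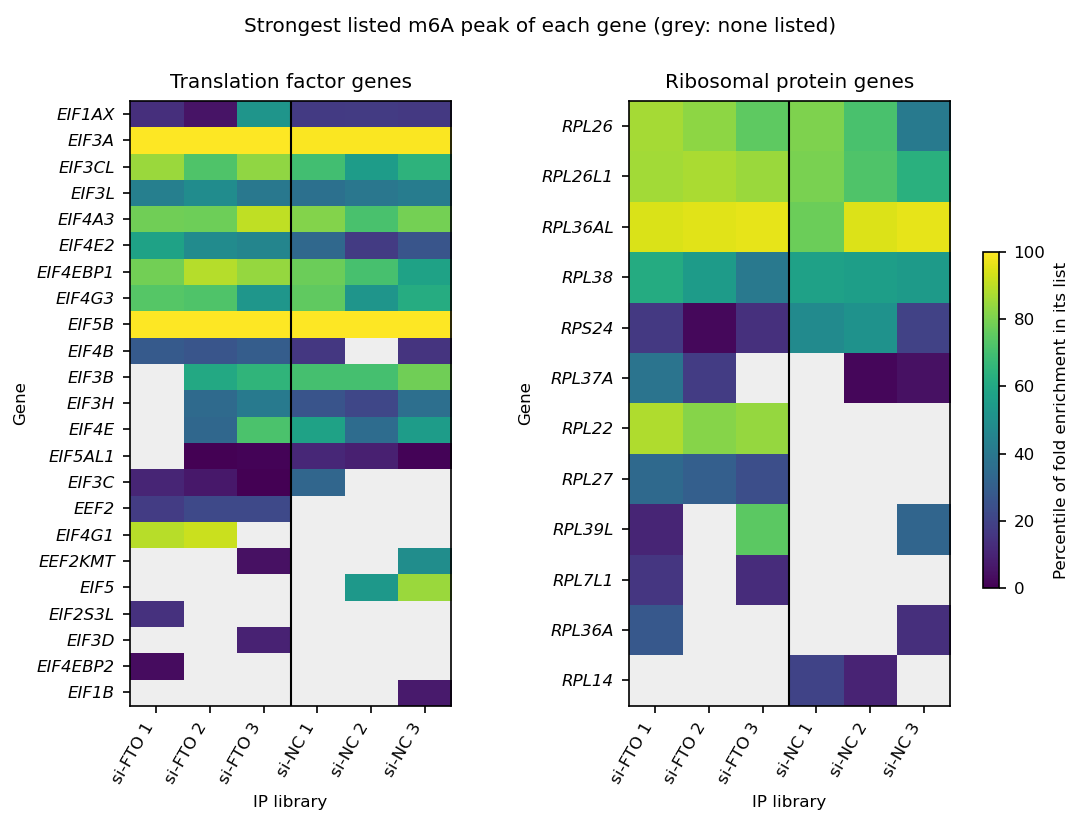
Percentile of fold enrichment, within its own list, of the strongest listed peak of each member gene (color, %), by IP library, with si-FTO libraries left of the line and si-NC libraries right of it. Grey cells have no listed peak. RPL22, RPL27 and EEF2 are filled in the 3 si-FTO lists and grey in the 3 si-NC lists, and no member has the opposite pattern.

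RPL22, RPL27 and EEF2 had a peak in all 3 si-FTO lists and in no si-NC list, and no member gene had the opposite pattern. These were 2 of 12 ribosomal and 1 of 23 factor genes, where 2.28% of all genes with a peak had this pattern and 2.75% the opposite one. All 6 lists held a peak for 5 of 12 ribosomal genes (RPL26, RPL26L1, RPL36AL, RPL38 and RPS24) and 9 of 23 factor genes, against 49.0% of all genes with a peak. A 3 against 3 pattern of 1 gene has an exact two-sided permutation p of 0.1 at the smallest, so no such gene can pass a threshold of 0.05.

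RPL22, a large subunit protein, had the highest fold of the 3 genes. Its peak (chr1:6245080-6246876, hg19, as are all peak positions) had a fold enrichment of 14.03, 11.34 and 12.27 in si-FTO libraries 1, 2 and 3, at percentiles 88.2, 81.9 and 84.2 of their lists. It was listed in no si-NC library, and the peak spanned 1797, 1797 and 1768 bp. Its score was 3100, 154 and 1199 in si-FTO, a wide spread beside the close folds, and was below that of EEF2 (1682, 3100 and 2452) in si-FTO 2 and 3.

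RPL27, a large subunit protein mutated in some cases of Diamond-Blackfan anemia, had a weaker peak (chr17:41151739-41152119). Its fold enrichment was 5.77, 5.48 and 5.13 in si-FTO libraries 1, 2 and 3, at percentiles 34.1, 30.2 and 24.2, with none listed in si-NC. EEF2, the factor that translocates the ribosome, had a peak (chr19:3976054-3976745) with folds of 4.75, 4.99 and 5.0 in si-FTO, at percentiles 18.0, 21.9 and 22.2, and none listed in si-NC. Both peaks thus lay in the lower part of their lists by fold. In 2 si-NC lists a peak named DAPK3, the neighboring gene, lay within 5000 bp of the EEF2 peak, whereas no peak of any name lay that close to the RPL22 or RPL27 peak in si-NC.

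By region, where peaks of the 6 lists were merged if they overlapped by at least 1 bp, the 35 genes had 50 regions. The si-FTO-only pattern held for 2 of 14 ribosomal regions and 4 of 36 factor regions, against 2.92% of all 12995 regions, and the opposite pattern for 0 of either class, against 3.20%. The factor regions were those of EEF2, EIF4G3 and a pair named EIF3C. EIF4G3, a scaffold of the cap-binding complex, had such a region at chr1:21190969-21191205 with folds of 5.99, 4.38 and 4.15 in si-FTO and none listed in si-NC, while its other regions were in all 6 lists. The EIF3C pair (chr16:28414839-28415209 and chr16:28722738-28723108) had folds of 4.22, 3.82 and 2.62 and of 4.17, 3.68 and 2.61 in si-FTO, and none listed in si-NC. Other EIF3C regions, at chr16:28437505-28437775 and chr16:28699879-28700149, were listed in si-NC 1 alone, with higher folds of 5.86 and 5.46.

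EIF3C and EIF3CL are near-identical copies, and the EIF3C pair had equal lengths in each list (371, 371 and 345 bp), so the authors' counting could have split reads between the copies, which was not tested. Without near-identical copies, a setting added with the data in view, the factor regions of the si-FTO-only pattern numbered 2, EEF2 and EIF4G3. When only the upper 75 percent of each list by fold was kept, the genes with the pattern numbered 1 ribosomal gene (RPL22) and 1 factor gene. That factor gene was EIF4B, whose si-NC peaks at percentiles 16.3 and 14.9 were cut. EEF2 was cut from all 3 si-FTO lists (percentiles 18.0, 21.9 and 22.2) and RPL27 from si-FTO 3 (24.2). In this setting 1 factor region had the opposite pattern. Of all genes, 2.29% then had the pattern, and 3.74% of all regions had the opposite one.

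Several members came close to these patterns. EIF4G1, the main scaffold of the cap-binding complex, had a strong peak (chr3:184039070-184039891) with folds of 14.63 and 15.76 in si-FTO 1 and 2, at percentiles 89.3 and 92.0, and none in si-FTO 3 or in si-NC. RPL7L1, a paralog of a large subunit protein, was listed in si-FTO 1 and 3 (folds 4.62 and 4.35) and in no si-NC list. EIF5, which triggers GTP hydrolysis by eIF2, was listed in no si-FTO library, and in si-NC 2 and 3 with folds of 7.39 and 11.99. RPL14 of the large subunit was listed in no si-FTO library, and in si-NC 1 and 2 with folds of 5.04 and 4.29.

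Such genes decided how the counts moved when a library was left out. Without si-FTO 3 the factor genes of the si-FTO-only pattern numbered 2, with EIF4G1, and likewise without si-NC 1, with EIF3C. Of all genes, 3.14% and 3.04% had the pattern in these runs. Without si-NC 3, 1 ribosomal gene (RPL14) had the opposite pattern, and without si-NC 1, 1 factor gene (EIF5) had it, against 3.78% and 4.39% of all genes. Without si-FTO 3, 1 factor region had the opposite pattern, against 4.50% of all regions. It was that of EEF2KMT, a methyltransferase of EEF2, which overlaps peaks named ALG1. The ribosomal genes of the si-FTO-only pattern numbered 2 to 3 over these runs, where 2.99% to 3.35% of all genes had it.

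The remaining members were listed in part of the libraries of both groups or in 1 library. EIF4B, which stimulates the helicase eIF4A, had folds of 5.4, 5.25 and 5.49 in si-FTO, against 4.79 and 4.63 in si-NC 1 and 3 and no listed peak in si-NC 2. EIF3B and EIF3H of eIF3, the cap-binding protein EIF4E and EIF5AL1, a copy of EIF5A, were listed in si-FTO 2 and 3 and in all 3 si-NC libraries. EIF4E had folds of 5.70 and 9.50 in si-FTO 2 and 3, and 7.85, 6.02 and 7.41 in si-NC, so the listed values overlapped. EIF3B had folds of 7.86 and 8.53 in si-FTO 2 and 3, and 9.38, 9.38 and 10.48 in si-NC.

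RPL37A was listed in si-FTO 1 and 2 and in si-NC 2 and 3, RPL36A in si-FTO 1 and si-NC 3, and RPL39L in si-FTO 1 and 3 and si-NC 3. RPL39L, a paralog known from male germ cells, had the widest spread of these, with folds of 4.22 and 10.02 in si-FTO 1 and 3, against 5.78 in si-NC 3. EIF2S3L and EIF4EBP2 were listed in si-FTO 1 alone, EIF3D in si-FTO 3 alone and EIF1B in si-NC 3 alone, all below percentile 15 of their lists.

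EIF5B and EIF3A carried the strongest peaks of the module. EIF5B, the GTPase of subunit joining, had 4 separate regions in all 6 lists, a number reached by 78 of 7623 genes (1.02%). Of 4737 regions with a peak in every list, which are 36.5% of all regions, the EIF5B region at chr2:99980108-99980325 ranked 8th by its lowest percentile. Its folds were 119.31, 115.64 and 154.68 in si-FTO, against 120.83, 77.48 and 118.61 in si-NC, and the values overlapped.

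The EIF5B region at chr2:99953834-99954052 had folds of 83.85, 45.61 and 99.02 in si-FTO, against 62.54, 71.25 and 52.69 in si-NC. Here the si-FTO libraries spread on either side of the si-NC values. The region at chr2:99977611-99978283 had folds of 29.65, 24.73 and 34.66 in si-FTO, against 26.07, 20.78 and 28.90 in si-NC. The region at chr2:99992810-99993099 had folds of 55.31, 58.83 and 48.14 in si-FTO, against 39.75, 42.81 and 31.91 in si-NC, and every si-FTO value was above every si-NC value.

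EIF3A, the largest subunit of eIF3 and its scaffold, had 4 regions, of which 2 were in all 6 lists. At chr10:120797446-120797951 its folds were 66.29, 57.51 and 65.40 in si-FTO, against 55.73, 47.70 and 54.58 in si-NC, a set in which the groups did not overlap. At chr10:120801506-120802284 they were 9.02, 8.71 and 9.46 in si-FTO, against 9.18, 8.35 and 8.34 in si-NC, a set in which they did. Another region, at chr10:120794541-120795780, was listed in si-FTO 1 and 3 with folds of 9.73 and 8.25, against 6.59, 6.33 and 6.61 in si-NC.

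**Figure D3:**
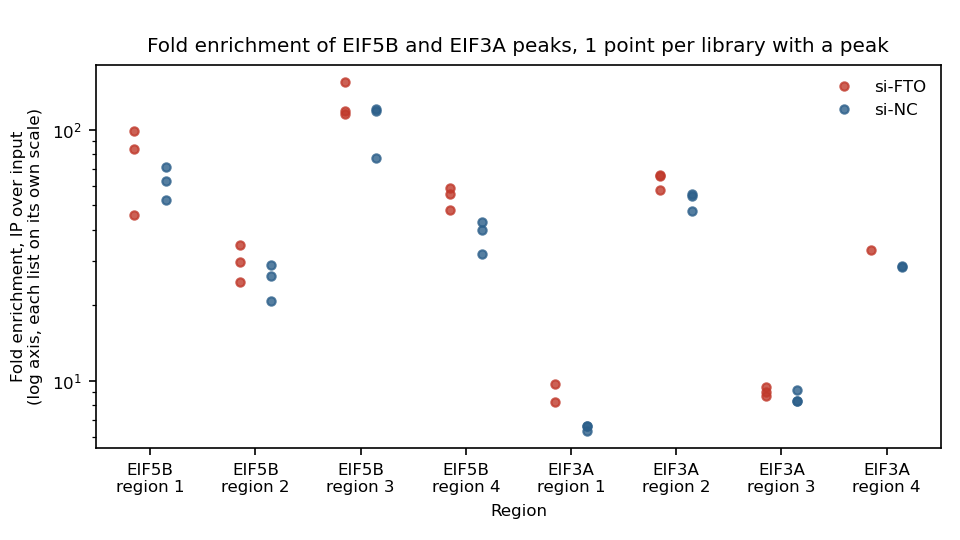
Fold enrichment of IP over input (log axis) of the regions of EIF5B and EIF3A, 1 point per library with a listed peak, si-FTO in red left of si-NC in blue, with regions numbered by position. EIF5B region 3 reaches 154.68 in si-FTO, against 120.83 in si-NC, while EIF5B region 4 and EIF3A region 2 have si-FTO points above all si-NC points.

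Folds of different lists are not on a common scale, so strength was compared between groups by the percentile of a peak within its own list, over the 4737 regions with a peak in every list. Of these, 14 were factor regions and 5 ribosomal regions. No member region passed an adjusted p of 0.05 in the limma test, which does not show that they did not differ, where 2.11% of all regions were higher in si-FTO and 2.28% lower. At an unadjusted p under 0.05 there were 3 of 14 factor and 2 of 5 ribosomal regions, against 24.7% of all regions. When 1 library was left out, 0 to 26 of all regions were higher and 0 to 13 lower, and members had none in any run. Calls remained only without si-NC 1 (18 higher and 13 lower) and without si-NC 2 (26 higher and 7 lower). A fit with fewer libraries also has less power.

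Every si-FTO percentile lay above every si-NC percentile in 6 of 14 factor regions and 1 of 5 ribosomal regions, where 16.9% of all regions did so. The opposite order held in 0 of 14 factor regions and 1 of 5 ribosomal regions, against 14.6% of all regions. The 6 factor regions were those of EIF4E2, EIF3CL, EIF4EBP1, EIF3A (the region of highest fold) and EIF5B (chr2:99980108-99980325 and chr2:99992810-99993099), and the ribosomal regions were those of RPL26L1 (higher) and RPS24 (lower). The EIF5B and EIF3A regions lay at the top of every list and differed by 0.065, 0.52 and 0.136 percentile points (EIF5B in that order, then EIF3A), with adjusted p of 0.513, 0.341 and 0.651 by limma. The median over regions of the mean percentile was 81.2 in si-FTO, against 67.0 in si-NC, for factor regions, 81.5 against 64.3 for ribosomal regions, and 63.4 against 62.7 for all regions. These are medians of different regions: within a region, the difference in mean percentile had a median of 3.59 for factor regions (0.046 to 24.6), 5.82 for ribosomal regions (-28.8 to 17.2) and 0.0806 for all regions. It was positive in 14 of 14 factor, 3 of 5 ribosomal and 2406 of 4737 regions. The factor regions are not independent, since EIF5B gave 4 of them and EIF3A and EIF4G3 gave 2 each. Some differences were very small, and that of EIF4G3 at chr1:21267984-21268823 was 0.18 percentile points but -0.022 in normal score.

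The order depended on libraries and on the measure. Without si-FTO 2 the higher factor regions numbered 10 of 16, where 21.3% of all regions were higher. Without si-FTO 1 the lower ones numbered 2 of 18 and without si-FTO 3 they numbered 1 of 14, where 19.4% and 19.5% of all regions were lower. The higher ribosomal regions numbered 2 of 5 without si-FTO 3 and without si-NC 1, where 20.9% and 22.4% of all regions were higher. By the rank of the score instead of the fold, 1 factor region was higher and 8 lower, and 0 ribosomal regions were higher and 4 lower, where 15.0% of all regions were higher and 27.4% lower. Of these, 7 of the 8 factor and 3 of the 4 ribosomal regions had the tied score of 3100 in all 6 lists, where the order reflects the number of ties in a list and holds for all 544 regions tied in this way.

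**Figure D4:**
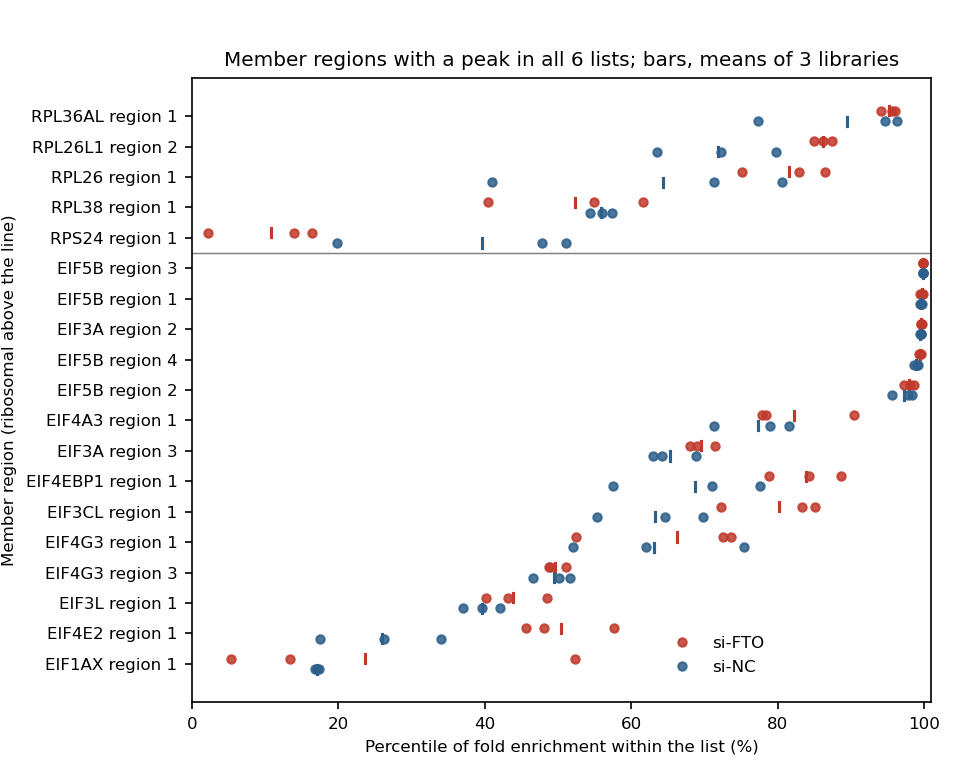
Percentile of fold enrichment within its list (%) for the 19 member regions with a peak in all 6 lists, 1 point per library, with regions of a gene numbered by position, si-FTO in red above si-NC in blue, with the mean of 3 libraries as a bar. EIF5B and EIF3A region 2 lie at the right edge in both groups, EIF4E2 is higher in si-FTO without overlap and RPS24 is lower in si-FTO without overlap.

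RPS24, a small subunit protein mutated in Diamond-Blackfan anemia and the small subunit gene with a peak, was the ribosomal gene with the largest difference. Its peak (chr10:79814289-79815392) had folds of 4.66, 3.30 and 4.44 in si-FTO, against 6.99, 7.24 and 4.96 in si-NC. The percentiles were 16.4, 2.16 and 13.9 in si-FTO, against 47.8, 51.1 and 19.8 in si-NC, lower in 3 of 3 si-FTO libraries. Over the 6 lists its scores were 80.0 to 390, and its false discovery rates were 55.7% to 97.7%. On normal scores of the rank the difference, si-FTO minus si-NC, was -1.11 (SE 0.36, n = 3 each), with an adjusted p of 0.117 by limma and 0.0988 to 0.242 over the alternatives.

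EIF4E2, a cap-binding relative of eIF4E that represses translation, had a peak (chr2:233433655-233433921) with folds of 7.58, 6.74 and 6.57 in si-FTO, against 5.94, 4.85 and 5.37 in si-NC. Its percentiles were 57.7, 48.1 and 45.6 in si-FTO, against 34.0, 17.5 and 26.2 in si-NC. Support for the peak was weak, with scores of 55.2 to 161 over the 6 lists, where listed scores start near 50. Its false discovery rates were 58.8% to 100%. The difference in normal score was 0.66 (SE 0.20, n = 3 each), with an adjusted p of 0.0983 by limma and 0.0976 to 0.854 over the alternatives. It was higher in 3 of 3 si-FTO libraries, but did not pass the test.

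EIF4EBP1, the repressor of eIF4E that mTOR inactivates, had a peak at chr8:37888020-37888236 with folds of 10.78, 13.90 and 12.32 in si-FTO, against 10.61, 9.45 and 7.62 in si-NC. The difference in normal score was 0.57 (SE 0.22), with an adjusted p of 0.176 by limma, and 0.140 to 0.663 over the alternatives, and it was 0.37 without si-NC 3. A second EIF4EBP1 region, at chr8:37917422-37917883, had folds of 9.16 and 10.14 in si-FTO 1 and 3, against 8.20, 7.61 and 6.49 in si-NC, and was not listed in si-FTO 2. EIF3CL (chr16:28403301-28404043), the copy of EIF3C, had folds of 12.49, 9.33 and 11.98 in si-FTO, against 9.29, 7.58 and 8.40 in si-NC, with a difference of 0.57 (SE 0.21) and an adjusted p of 0.152 by limma, 0.128 to 0.619 over the alternatives.

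RPL26L1, a paralog of RPL26, had a peak at chr5:172396416-172396774 with folds of 12.99, 13.32 and 12.53 in si-FTO, against 11.10, 9.67 and 8.27 in si-NC, and the groups did not overlap. The difference in normal score was 0.56 (SE 0.19), with an adjusted p of 0.127 by limma and 0.105 to 0.465 over the alternatives. The EIF5B region at chr2:99992810-99993099 had a difference of 0.27 (SE 0.16), with an adjusted p of 0.341 by limma and 0.0838 to 0.854 over the alternatives. By the rank of the score its difference was -0.0146, in a region with the tied score of 3100 in every list.

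The other regions in all 6 lists overlapped between the groups. RPL36AL, a paralog of RPL36A, had the strongest ribosomal peak (chr14:50085406-50085858), with folds of 18.74, 20.24 and 21.90 in si-FTO, against 10.57, 19.30 and 20.43 in si-NC, where si-NC 1 was low. RPL38 (chr17:72205326-72205600), known in mice for the translation of Hox mRNAs, had folds of 8.01, 7.29 and 6.18 in si-FTO, against 7.82, 7.63 and 7.36 in si-NC. EIF4A3 (chr17:78120592-78120982), the helicase of the exon junction complex, had folds of 10.70, 10.37 and 15.18 in si-FTO, against 11.52, 9.48 and 10.62 in si-NC, with si-FTO 3 standing above the rest.

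EIF3L (chr22:38273681-38274178), a subunit of eIF3, had closely grouped folds of 6.36, 6.77 and 6.16 in si-FTO, against 6.18, 6.35 and 6.42 in si-NC. EIF4G3 had folds of 9.72, 9.39 and 7.18 in si-FTO, against 10.18, 7.30 and 8.10 in si-NC, at chr1:21177751-21177971. At chr1:21267984-21268823 it had folds of 6.78, 6.96 and 6.85 in si-FTO, against 7.16, 6.84 and 7.13 in si-NC. EIF1AX (chrX:20159743-20159966), which encodes eIF1A of start codon scanning, had folds of 4.44, 3.72 and 7.17 in si-FTO, against 4.85, 4.84 and 4.77 in si-NC, so the si-FTO libraries lay on either side of closely grouped si-NC libraries.

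RPL26, a large subunit protein that also binds the p53 mRNA, differed in the extent of its peak. The 6 peaks ended at the same base (chr17:8283254) and spanned 715, 724 and 712 bp in si-FTO, against 344, 596 and 340 bp in si-NC, so each si-FTO peak was longer than each si-NC peak. This held for 1 of 5 ribosomal and 0 of 14 factor regions, where 6.99% of all regions were longer in this way and 1.37% shorter. Over members of both classes, 1 such region is near the share of all regions. The comparison of lengths was added with the data in view. The folds of this peak were 13.08, 11.64 and 10.06 in si-FTO, against 11.32, 9.49 and 6.34 in si-NC, and overlapped.

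**Figure D5:**
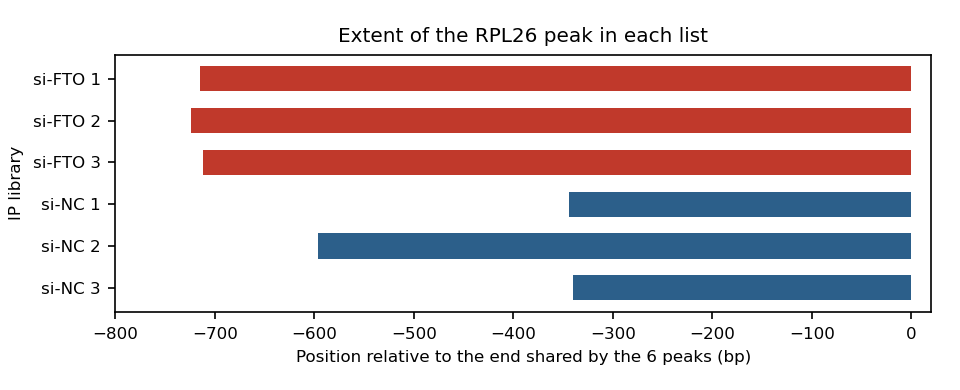
Extent of the RPL26 peak in each IP library, in bp from the end that the 6 peaks share, si-FTO in red above si-NC in blue. The si-FTO peaks span 712 to 724 bp and the si-NC peaks 340 to 596 bp.

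Of 60 other translation genes, taken from a list outside the naming rule, 35 had a peak, 19 of them in all 6 lists, and 0 were listed throughout 1 group while missing from the other, where 2.28% and 2.75% of all genes were. Ribosome-making genes were listed for 11 of 16, with NCL, BOP1 and NOP2 among the 8 in all 6 lists, and genes of the mTOR arm for 9 of 12, with MTOR, RPTOR and TSC1 among the 5 in all 6 lists. Cytosolic tRNA synthetase genes were listed for 9 of 20, poly(A)-binding genes for 3 of 6 and termination and recycling genes for 3 of 6.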

How the data were processed

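MeRIP-seq libraries of K1 cells were analysed from the 6 deposited peak lists. CASAVA 1.8 and BWA are named in the submitters' processing notes, and MACS in the peak identifiers, with caller settings not given in the sources used here. The authors deposited, per peak, hg19 positions, a length in bp, a score, a fold enrichment (ratio) of IP over input and the FDR as a percent. Scores start at a p-value of 1e-05, and many are tied at 3100. Each list had 1 emptied line. Starts were counted from 1. Read counts were not used here, so depth and its precision are unknown.

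Peaks were merged across lists with an overlap of at least 1 bp, using Python 3.11.15, pandas 2.3.3 and scipy 1.17.1. For regions with a peak in every list, normal scores of the within-list rank of fold were compared, si-FTO minus si-NC, with limma 3.58.1 in R 4.3.3 over all such regions, with Benjamini-Hochberg adjustment and a threshold of 0.05. The fit was tested on simulated data, in which most planted differences of the size of those in members were not called. Percentiles are ranks of fold within a list, from 0 to 100. Where a list had several peaks in a region the highest was taken.

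Members and gene lists were chosen with earlier results of these data known. Named genes were those listed throughout 1 group and missing from the other, regions in all 6 lists, those with the largest differences among non-overlapping regions, and genes with several regions in all 6 lists; other members are accounted for by name. Alternatives were leaving out each replicate, the upper 75 percent of fold, a score of at least 100, at least 2 of 3 lists, lists of equal length, an overlap of at least 100 bp, the rank of the score, centred log2 fold and a replicate block. Peak sequences, exon and stop codon positions and motifs within peaks need a genome of this build and were not analysed here.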

Additional observations from a re-analysis of the deposited data

How the results depend on the processing

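Over the settings other than leaving out a replicate, 97 of 122 values kept their direction and side of the threshold, or a count within 1.5 times, 24 moved and 1 reversed. With a replicate block the limma calls over all regions numbered 0 higher and 0 lower, against 100 and 108 without it, and no member was called in either fit. Deviations of libraries with the same replicate number had correlations of 0.0206, 0.0698 and -0.0608. Centring each group on its own mean constrains these values, so they do not settle whether libraries were paired. With the rank of the score, 193 regions were higher over all, and with the centred log2 fold 196. Member regions by score numbered 0 higher and 4 lower (ribosomal) and 1 higher and 8 lower (factor), of which 3 and 7 of the lower ones were ties by construction. Over all regions, 15.0% were higher and 27.4% lower by score. The EIF5B difference that reversed was -0.0146 by score, with an adjusted p of 0.854 by limma.

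With the upper 75 percent of fold, which tests fewer regions, limma called 61 higher and 66 lower over all. The si-FTO-only pattern then held for 1 ribosomal gene, 1 ribosomal region and 1 factor region, and the opposite pattern for 1 factor region. The factor region of the si-FTO-only pattern was that of EIF4B, since those of EEF2, EIF4G3 and EIF3C lost peaks to the cut. In this setting 0 ribosomal regions were lower, since RPS24 was no longer in every list. The si-FTO-only pattern held for 2.29% of all genes and 2.89% of all regions. The opposite one held for 3.74% of all regions, and 14.7% of those in every list were lower. With at least 2 of 3 lists, 3 ribosomal genes, 2 factor genes, 3 ribosomal regions and 5 factor regions had the si-FTO pattern and 1 ribosomal gene, 1 factor gene, 1 ribosomal region and 1 factor region had the opposite one, where 4.91% and 6.53% of all genes did so. Of all regions, 7.06% and 7.99% did so. With lists of equal length, 1 factor gene and 1 factor region had the opposite pattern, where 2.45% of all genes and 2.86% of all regions did. Without near-identical copies, a setting chosen after seeing the data, 2 factor regions had the si-FTO pattern and 0 ribosomal regions were higher, since RPL26L1 was left out.

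Leaving out each replicate gave 0 to 26 regions higher and 0 to 13 lower over all by limma. The si-FTO-only pattern held for 2 to 3 ribosomal genes and regions, 1 to 2 factor genes and 4 to 5 factor regions. It held for 2.99% to 3.35% of all genes and 3.84% to 4.45% of all regions. The opposite pattern held for 0 to 1 ribosomal genes, 0 to 1 factor genes, 0 to 1 ribosomal regions and 0 to 1 factor regions. It held for 3.76% to 4.39% of all genes and 4.15% to 5.32% of all regions. Factor regions numbered 6 to 10 higher and 0 to 2 lower, and ribosomal regions 1 to 2 higher and 1 lower. Over all regions, 20.6% to 22.4% were higher and 18.2% to 20.3% lower in these runs. Depth, siRNA and culture were not tested, and a peak under the calling threshold is not listed.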
